A study of Homo sapiens with 8 samples.

Results

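AP-1 is a family of dimeric transcription factors, and 10 of its genes are described here in cisplatin-resistant and parental ovarian carcinoma spheroids: FOS, FOSB, FOSL1, FOSL2, JUN, JUNB, JUND, BATF3, ATF3 and MAFF. They were taken by name from 18417 genes that a probeset with 1 gene measures, each has a single such probeset, and all 10 passed the filter on low signal that left 15931 genes for the test. The cell lines were compared as spheroids of about 300 μm grown in 2% agarose molds, with 4 Affymetrix Human Gene 1.0 ST arrays each. OVCAR-8R, named OVCAR-8C in the sample labels, is a derivative that was exposed to cisplatin in steps up to 5 μM and kept its resistance after the drug was withdrawn. OVCAR-8 is the parental line of ovarian adenocarcinoma, which did not go through these steps. Both lines were kept in DMEM with 10% serum and antibiotics. OVCAR-8R is 1 selected line, so any difference between the lines is that of a single derivation.

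AP-1 proteins carry a basic region that touches DNA and a leucine zipper through which they pair. JUN proteins pair with each other or with FOS proteins, FOS proteins need a JUN partner, and the ATF, BATF and small MAF proteins join the same network with other partners and other DNA preferences. The best known AP-1 site reads TGANTCA, and dimers that contain ATF proteins favour the longer CRE letters TGACGTCA. MAP kinases, growth factors, cytokines and DNA damage switch on several of these genes within minutes, and FOSL1, FOSL2 and JUND are usually present for longer than FOS and FOSB. In carcinoma cells AP-1 is best known for driving proteases, adhesion receptors and cytokines.

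Several members are controlled by AP-1 or CRE sites of their own, so the windows from 250 bases before to 50 bases after each RefSeq gene start (GRCh38.p14) were searched on both strands for TGANTCA, TGACGTCA, the TGACATCA form known from the JUN promoter, and the CArG box bound by SRF. The table of windows holds 8 of the 10 members, all but FOSL1 and BATF3. TGANTCA was found in 1 of the 8 (FOSL2), TGACGTCA in 2 (JUND and MAFF), TGACATCA in 2 (JUN and ATF3) and a CArG box in 0. Among the windows of 12455 genes tested on the arrays, these were present in 4.92%, 2.9%, 1.82% and 1.15%. The match of TGACATCA in JUN was fixed in advance, because the letters are those of its promoter. That search was chosen after values or sequences were seen, so its count is not set against the 1.82% as a result. The matches, which do not overlap each other, are shown in capitals within their surroundings, 60 bases each and 30 bases for FOSL2, because these 5 members range from called higher to called lower.
FOSL2: gtgccattgtagTGACTCAtctcgggcaga
JUND: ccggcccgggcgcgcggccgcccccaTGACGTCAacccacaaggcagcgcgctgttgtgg
MAFF: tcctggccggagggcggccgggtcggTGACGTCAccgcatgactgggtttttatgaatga
JUN: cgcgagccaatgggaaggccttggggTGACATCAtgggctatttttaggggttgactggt
ATF3: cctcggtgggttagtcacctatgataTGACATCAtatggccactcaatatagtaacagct
The FOSL2 stretch lies at chr2:28392850-28392879 on the plus strand, with the match from base 5 to base 11 after the start. The JUND stretch is at chr19:18281789-18281848 on the minus strand, with the match beginning 200 bases before the start, and that of MAFF at chr22:38201914-38201973 on the plus strand, with the match beginning 54 bases before it. The JUN stretch is at chr1:58784081-58784140 on the minus strand, with the match beginning 67 bases before the start, and that of ATF3 at chr1:212565258-212565317 on the plus strand, with the match beginning 123 bases before it. Only the start given in that table was searched, which for ATF3 is the most upstream start of the gene. A match is a description of letters and does not show that a factor binds there. Elements outside the window, or with letters that depart from the pattern, were not counted. A member without a match, such as FOS, can therefore still have a CArG box or a CRE.

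The arrays had median log2 signals of 6.68 to 6.73 in OVCAR-8R and 6.67 to 6.73 in OVCAR-8. The OVCAR-8R arrays formed a pair of pairs: after each probeset's mean was taken off, arrays 1 and 3 correlated at 0.427 and arrays 2 and 4 at 0.484, and the results on AP-1 are also given without each pair. Of 10 markers of ovarian carcinoma and epithelium, 0 lay in the lowest quartile in either line. In OVCAR-8R, 6 were called higher (PAX8, KRT7, KRT8, KRT18, EPCAM and MSLN), 60% against 8.37% of all genes. The summed linear signal was 12728 to 13710 on the OVCAR-8R arrays and 1966 to 2278 on the OVCAR-8 arrays. In OVCAR-8, KRT8 (9.54), KRT18 (9.53) and WT1 averaged above the array medians. The other markers of the list averaged 6.51 or less there, below these medians. WT1, an ovarian carcinoma marker of the same list, averaged 6.19 in OVCAR-8R, against 7.05 in OVCAR-8, a difference of -0.86 (adjusted p = 0.000202 from limma) with no overlap, under 2-fold and not called, and CDH1 averaged 6.02 in OVCAR-8R, against 6.25 in OVCAR-8. Of 7 leukocyte markers, 3 (PTPRC, CD3E and LYZ) lay in the lowest quartile of both lines, and the sum was 2471 to 2646 in OVCAR-8R and 594 to 682 in OVCAR-8, with CD68, a lysosomal protein gene, the only marker called. Of 9 fibroblast markers, DCN and FAP were in the lowest quartile in both lines and COL1A1 was called higher and LUM lower, with sums of 1092 to 1210 in OVCAR-8R and 537 to 606 in OVCAR-8. None of the 6 endothelial markers was called, with sums of 328 to 382 in OVCAR-8R and 316 to 346 in OVCAR-8. Among these 6, 0 lay in the lowest quartile of both lines, and KDR and TEK lay in it in OVCAR-8 only. A level above the lowest quartile thus does not show that a cell type is present. The shares of tested leukocyte, fibroblast and endothelial markers called were 25%, 28.6% and 0%, against 16.7% of all genes. The part of these markers in the AP-1 results was not tested.

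Of the 10 AP-1 members, 2 were called higher in OVCAR-8R spheroids (FOSL1 and FOSL2), 1 was called lower (ATF3) and 7 were not called. A gene is called at a Benjamini-Hochberg adjusted p under 0.05 in limma and a difference of at least 2-fold in mean signal. Every difference is OVCAR-8R minus OVCAR-8 on the log2 scale of the RMA signal, with its standard error. Over all genes tested, 8.37% were called higher, 8.37% lower and 16.7% in either direction. At an adjusted p under 0.05 and any size of difference, 6 members were higher and 2 were lower, against 27.6% and 30.0% of all genes and 57.6% in either direction. The lines did not overlap in 8 of the 10 members, against 56.8% of all genes. The median difference of the members was 0.45 and that of all genes -0.01. An exact two-sided permutation test over the arrays gave p = 0.0286 for each of these 8 members, the smallest that 4 against 4 arrays can give, p = 0.343 for JUN and p = 0.4 for BATF3. The RNA is from whole spheroids, so fewer cells that make a transcript and less of it in each cell cannot be told apart.

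**Figure D1:**
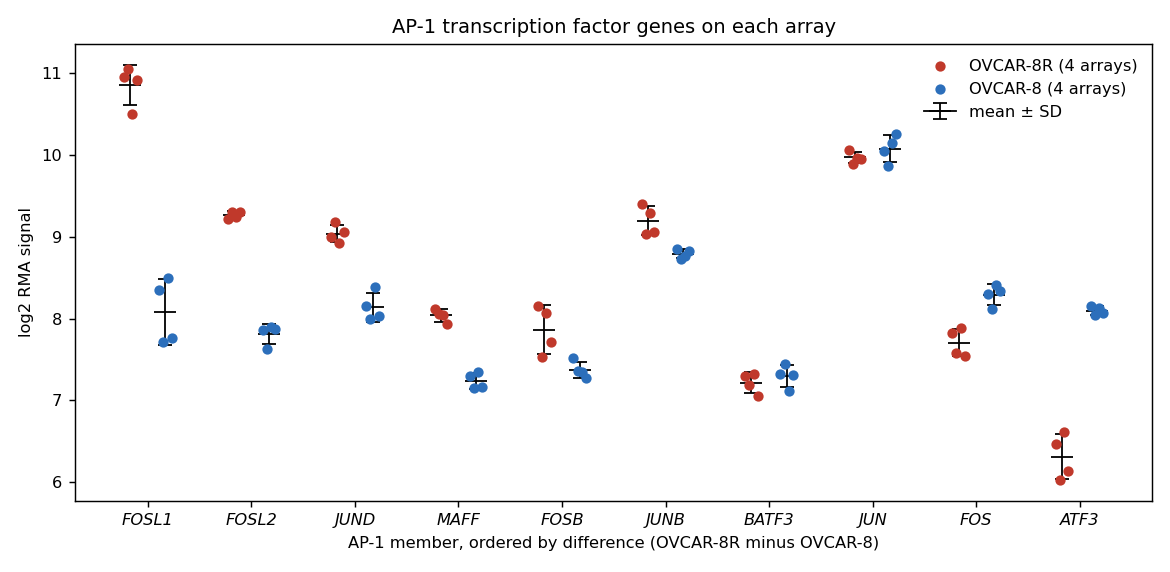
Log2 RMA signal (vertical axis) of each AP-1 member (horizontal axis, ordered by difference) on the 4 OVCAR-8R arrays (red, left) and the 4 OVCAR-8 arrays (blue, right), with the mean ± SD in black. FOSL1 lies at 10.50 or above on the OVCAR-8R arrays and at 8.50 or below on the OVCAR-8 arrays, ATF3 lies lower on every OVCAR-8R array, and JUN and BATF3 overlap; heights of different genes come from different probes and cannot be compared.

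Among the FOS genes, both called members encode FOS-related antigens. FOSL1 encodes FRA-1, which lacks the strong activation domain of FOS and is stabilised by ERK. Its log2 signal (probeset 7949532) was 10.96, 11.06, 10.50 and 10.92 on the OVCAR-8R arrays, against 8.35, 7.71, 8.50 and 7.77 on the OVCAR-8 arrays. All OVCAR-8R arrays lay above all OVCAR-8 arrays, and the signal averaged 10.86 ± 0.24 in OVCAR-8R, against 8.08 ± 0.40 in OVCAR-8 (SD, n = 4 each). FOSL1 rose by 2.78 (standard error 0.20, adjusted p = 1.60e-06 from limma), a 6.85-fold difference with a 95% interval of 2.34 to 3.22 on the log2 scale. In the order of rises over all genes tested it was number 206. It was also the member with the widest spread among OVCAR-8 arrays, which fell into a higher pair (arrays 1 and 3) and a lower pair (arrays 2 and 4).

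FOSL2 encodes FRA-2, the other FOS-related antigen. Its log2 signal (probeset 8041048) was 9.22, 9.31, 9.24 and 9.30 on the OVCAR-8R arrays, against 7.86, 7.63, 7.89 and 7.87 on the OVCAR-8 arrays. The OVCAR-8R arrays were nearly the same and all of them lay above the OVCAR-8 arrays, and the signal averaged 9.27 ± 0.04 in OVCAR-8R, against 7.81 ± 0.12 in OVCAR-8 (SD, n = 4 each). FOSL2 rose by 1.46 (standard error 0.08, adjusted p = 2.71e-07 from limma), a 2.75-fold difference with a 95% interval of 1.28 to 1.63, and was number 727 in the order of rises.

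FOS (probeset 7975779), the founding member and a classic immediate early gene, had a log2 signal of 7.82, 7.58, 7.88 and 7.54 on the OVCAR-8R arrays, against 8.30, 8.11, 8.41 and 8.34 on the OVCAR-8 arrays. All OVCAR-8R arrays were below all OVCAR-8 arrays. The difference of -0.58 (standard error 0.10, adjusted p = 0.000872 from limma) is under 2-fold and was not called. FOSB, whose product resembles that of FOS, had 8.15, 7.53, 8.07 and 7.72 on the OVCAR-8R arrays, against 7.51, 7.36, 7.35 and 7.28 on the OVCAR-8 arrays. The lines did not overlap, but the lowest OVCAR-8R array and the highest OVCAR-8 array nearly met. Its difference of 0.49 (0.14, adjusted p = 0.0130) was not called. Without OVCAR-8R arrays 1 and 3 it was 0.25 (adjusted p = 0.0839 from limma), so that FOSB is then not among the members higher at any size, and without arrays 2 and 4 it was 0.73 (adjusted p = 0.000429).

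No JUN gene was called, and the largest difference among them was that of JUND. JUND encodes the JUN protein that resting cells keep and that often restrains growth. Its log2 signal was 9.0, 9.18, 8.92 and 9.06 on the OVCAR-8R arrays, against 8.16, 7.99, 8.39 and 8.03 on the OVCAR-8 arrays. The lines did not overlap, and the difference of 0.90 (standard error 0.10, adjusted p = 4.19e-05 from limma, 1.87-fold) has a 95% interval of 0.67 to 1.13, which includes the 2-fold threshold.

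JUN, the main partner of FOS proteins and the substrate of the JUN N-terminal kinases, had 10.07, 9.90, 9.96 and 9.95 on the OVCAR-8R arrays, against 10.04, 9.87, 10.15 and 10.26 on the OVCAR-8 arrays. The lines overlapped. The difference of -0.11 (standard error 0.09, adjusted p = 0.374) has a 95% interval of -0.32 to 0.10, and with cyclic loess scaling of the arrays its sign turned at a value of 0.000265. JUNB, a weaker activator that can oppose JUN, had 9.40, 9.04, 9.29 and 9.06 on the OVCAR-8R arrays, against 8.85, 8.73, 8.77 and 8.83 on the OVCAR-8 arrays. All OVCAR-8R arrays were above all OVCAR-8 arrays, but the difference of 0.40 (0.09, adjusted p = 0.00482) was not called. It was 0.25 without OVCAR-8R arrays 1 and 3 (adjusted p = 0.0320 from limma) and 0.55 without arrays 2 and 4 (adjusted p = 0.00104).

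ATF3, the stress-induced member whose homodimers repress transcription, went the other way. Its log2 signal (probeset 7909610) was 6.47, 6.03, 6.61 and 6.13 on the OVCAR-8R arrays, against 8.15, 8.04, 8.13 and 8.06 on the OVCAR-8 arrays. The OVCAR-8 arrays lay within 0.11 of each other, and the OVCAR-8R arrays ranged over 0.58, and ATF3 averaged 6.31 ± 0.28 in OVCAR-8R, against 8.10 ± 0.05 in OVCAR-8 (SD, n = 4 each). ATF3 fell by 1.79 (standard error 0.13, adjusted p = 1.60e-06 from limma), so that the signal in OVCAR-8 was 3.45 times that in OVCAR-8R, and it was number 288 in the order of falls. Its mean in OVCAR-8R, 6.31, stayed above the lowest quartile of signal in that line, which ended at 5.11.

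MAFF is a small MAF protein, which has no activation domain of its own and binds DNA alone or with NRF2-type partners. It had 8.12, 8.06, 8.04 and 7.94 on the OVCAR-8R arrays, against 7.30, 7.15, 7.35 and 7.17 on the OVCAR-8 arrays. The lines did not overlap, and the difference of 0.80 (standard error 0.08, adjusted p = 1.32e-05 from limma, 1.74-fold) was not called. BATF3, a JUN partner best known from dendritic cells, had 7.30, 7.18, 7.33 and 7.05 on the OVCAR-8R arrays, against 7.32, 7.44, 7.11 and 7.32 on the OVCAR-8 arrays. The lines overlapped, with a difference of -0.08 (0.09, adjusted p = 0.504) and a 95% interval of -0.30 to 0.13. Without OVCAR-8R arrays 2 and 4 the sign turned, at 0.01.

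**Figure D2:**
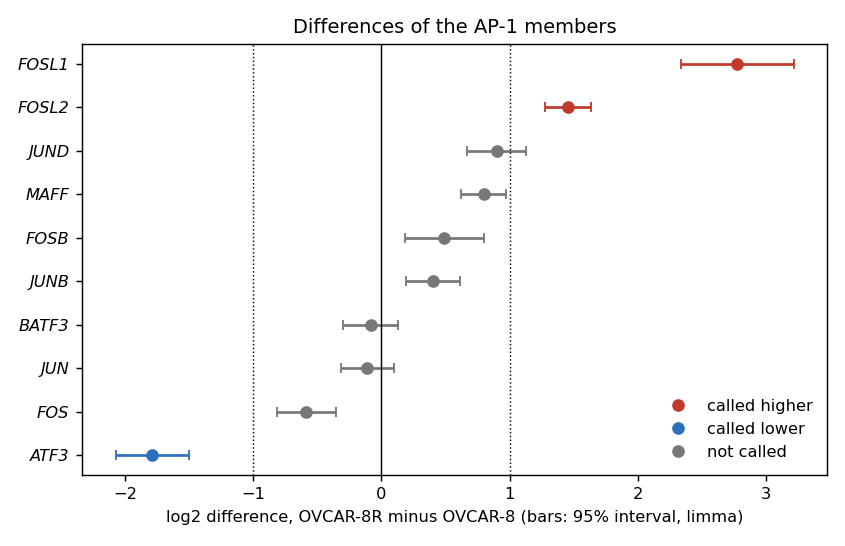
Log2 difference of each AP-1 member, OVCAR-8R minus OVCAR-8, with the 95% interval from limma; the dotted lines mark 2-fold. FOSL1 (2.78) and FOSL2 (1.46) lie wholly above the upper line, ATF3 (-1.79) wholly below the lower one, and the interval of JUND crosses the upper line.

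The calls of the members did not rest on a single array. FOSL1, FOSL2 and ATF3 kept their calls, and no other member gained one, under each of the other settings tried at the 2-fold threshold, including treat, which tests for more than 2-fold (adjusted p = 9.17e-05 for FOSL1, 0.00214 for FOSL2 and 0.00134 for ATF3). Among arrays of a line, members differed in which arrays were higher. On the OVCAR-8R arrays, FOS, FOSB, JUN, JUNB, BATF3 and ATF3 were higher on arrays 1 and 3 than on arrays 2 and 4, by 0.49 in the mean for FOSB and 0.46 for ATF3, while FOSL2 and JUND were lower there, by 0.07 and 0.16. Over all genes tested, 33.8% had arrays 1 and 3 above arrays 2 and 4 in this line and 33.8% had them below. On the OVCAR-8 arrays, FOSL1, JUND, MAFF and ATF3 were higher on arrays 1 and 3, as in 15.5% of all genes. Without OVCAR-8R arrays 1 and 3, and likewise without arrays 2 and 4, the same 3 members were called.

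**Figure D3:**
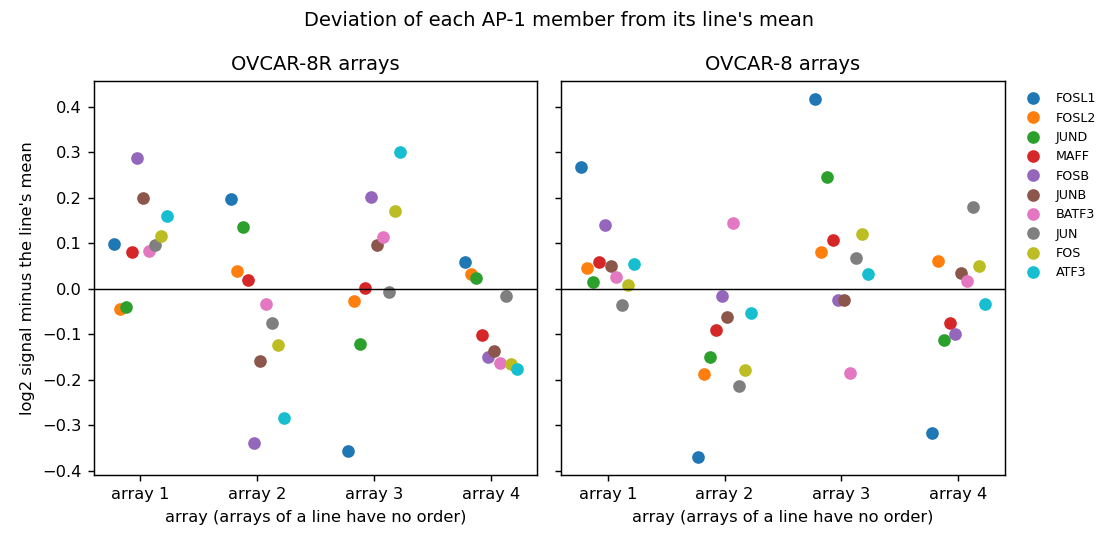
Log2 signal of each AP-1 member minus its mean in the line (vertical axis) on the 4 OVCAR-8R arrays (left) and the 4 OVCAR-8 arrays (right). Arrays 1 and 3 of OVCAR-8R hold the higher values of FOSB and ATF3, and FOSL1 spreads most on the OVCAR-8 arrays.

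The genes whose signal followed FOSL1 most closely over the 8 arrays were TUBB4B, a beta-tubulin (Pearson r = 0.998), PSG9, a pregnancy-specific glycoprotein whose near-identical relatives may share its signal (r = 0.998), and RAB1B, a GTPase of early secretion (r = 0.997). Those closest to ATF3 were RANBP1, which assists the GTPase RAN (r = 0.997), the peroxiredoxin gene PRDX4 (r = 0.997) and the drug exporter gene ABCB1 (r = 0.996). All 8 arrays share the difference between the lines, which sets most of each correlation, and no p is given.

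Of 19 other bZIP genes tested, 1 was called higher and 18 were not called, a share of 5.26% against 16.7% of all genes. The list holds further partners of JUN, FOS and MAF proteins. NFE2L1, an NRF2 relative that pairs with small MAF proteins and induces proteasome genes, rose by 1.16 (standard error 0.10, adjusted p = 5.07e-06 from limma), a call that ended with treat. JDP2, a repressor that pairs with JUN, and ATF7, a CRE-binding partner, had differences of 0.80 and 0.67, and NFE2L2 (NRF2) one of 0.70. ATF2, the main ATF partner of JUN, had one of -0.10, CREB5 one of -0.87 and BATF one of 0.09. At an adjusted p under 0.05 in limma and any size of difference, 7 of the list were higher and 4 lower, against 27.6% and 30.0% of all genes. At an unadjusted p under 0.05, 4 were lower, against 5113 of the 15931 genes tested. The methods' t-test with the 2-fold threshold called 0 lower. The median of the list was 0.09.

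Among 19 MAP kinase pathway genes that lead to AP-1, 1 was called higher and 2 lower, which is 15.8% against 16.7% of all genes. MAP3K1, which activates the JUN kinase branch, fell by 1.54 (standard error 0.09, adjusted p = 4.47e-07 from limma), with a mean of 7.69 in OVCAR-8R, against 9.23 in OVCAR-8. MAP2K4, the next kinase of that branch, fell by 1.001 (0.08), at the threshold itself, and MAP2K3, which activates p38, rose by 1.04 (0.08). Both of these calls ended with treat and without OVCAR-8 array 2, and that of MAP2K4 also with quantile or cyclic loess scaling and without OVCAR-8R array 1 or 2, without its arrays 1 and 3, and without OVCAR-8 array 1 or 3. RPS6KA2 was called lower as well without OVCAR-8R array 1, without its arrays 1 and 3, and without OVCAR-8 array 3, and RPS6KA5 without OVCAR-8R arrays 2 and 4. The JUN kinase genes MAPK8, MAPK9 and MAPK10 had differences of 0.11, 0.51 and -0.85 and were not called. MAPK10 was dim, with a mean of 5.23 in OVCAR-8R, against 6.08 in OVCAR-8. MAPK3 (ERK1) had a difference of -0.15.

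Of 12 factors that act at AP-1 gene promoters, 3 were called higher and 1 lower, 33.3% against 16.7% of all genes. The 3 called higher are ETS factors, as are ELK1 and ELK4, which were not called. ELK4 had a difference of -0.37, and MEF2D, which is not an ETS factor, had 0.98 and was not called either. ETS1, which cooperates with AP-1 at protease promoters, had a log2 signal of 10.97, 10.94, 11.05 and 10.77 on the OVCAR-8R arrays, against 6.11, 6.08, 5.95 and 6.46 on the OVCAR-8 arrays. It rose by 4.78 (standard error 0.11, adjusted p = 1.25e-09 from limma), a larger difference than that of any AP-1 member. ELK3, an SRF partner, rose by 2.45 (0.09) and ETS2 by 1.66 (0.08). MEF2C, which acts at the JUN promoter, fell by 2.18 (0.10), to a mean of 6.26 in OVCAR-8R, against 8.45 in OVCAR-8. SRF had a difference of -0.56 and ELK1 one of -0.10, and STAT3, at 0.997, was just under the threshold and passed it with cyclic loess, quantile scaling or array weights and without OVCAR-8R array 1 or 3 or OVCAR-8 array 3 or 4.

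Of 15 cofactors and turnover factors, 1 was called higher and 1 lower, 13.3% against 16.7% of all genes. ZFP36L1, which promotes the decay of mRNAs with AU-rich elements, rose by 2.62 (standard error 0.14, adjusted p = 2.36e-07 from limma). FBXW7, the ubiquitin ligase subunit that targets JUN, fell by 1.24 (0.11, adjusted p = 7.19e-06), to a mean of 5.90 in OVCAR-8R, against 7.14 in OVCAR-8, a call that ended with treat and with the stricter filter. COP1 and DET1, which also act in JUN degradation, had differences of -0.36 and -0.67, and the coactivator genes CREBBP and EP300 had 0.37 and 0.19.

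Of 29 tested genes usually given as AP-1 targets, MMP1, IL1B, IL6 and CD44 rose the most. Of the 29, 17 were called higher and 0 lower, 58.6% higher against 8.37% of all genes, with a median difference of 1.73 against -0.01. The list was chosen with earlier results of these data known, and the paper had already reported higher MMP1, CD44, IL6 and TNF. The share may therefore follow in part from that choice. The call of TNF ended with treat and with the stricter filter. In limma without the 2-fold threshold, 3 of them (PTGS2, GJA1 and CCL2) were lower at an unadjusted p under 0.05, against 5113 of the 15931 genes tested. At an adjusted p under 0.05, 20 were higher and 3 lower, against 27.6% and 30.0% of all genes. The methods' t-test with the 2-fold threshold called 0 lower. EZR, AREG and HMGA2 were not analysed here, and MMP3, MMP13, SPRR1B, SPRR2A and NTS lay in the lowest quartile of both lines and were left out by the filter, which keeps a gene that is high in only 1 line. The means were those of MMP1, the interstitial collagenase (13.27 in OVCAR-8R and 6.41 in OVCAR-8, mean log2 signals), the cytokine genes IL1B (11.70 and 5.06) and IL6 (12.11 and 5.49), and the hyaluronan receptor gene CD44 (11.77 and 5.89). In OVCAR-8 the IL1B probeset was among the dimmest 25% of probesets, so its difference is best read as a lower bound. Most of the targets are also induced by NF-kB and other factors, and the part of AP-1 in their difference was not tested. PTGS2 (prostaglandin synthase) had a difference of -0.89, GJA1 (a connexin) one of -0.77, VEGFA one of -0.20 and TIMP1 one of -0.18.

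TGANTCA was present in the window of 11 of 27 listed targets (40.7%), against 4.92% for the genes tested and 7.76% for all windows. The list holds 38 genes, and the 27 are those with a window, including genes that were not tested on the arrays. The others were not searched, so a target not named here may have had no match or no window. The list was made of genes usually given as AP-1 targets, so a high share follows in part from that choice. It is not a result of these arrays. Of the 11, 4 were called higher (CXCL8, ITGA5, MT2A and PLAUR), 4 were tested and not called (GJA1, IL11, IVL and MMP10) and 3 were not tested (EZR, SPRR1B and SPRR2A). Over the whole list, 58.6% of the tested genes were called higher, against 8.37% of all genes. The letters TGAGTCA found for PLAUR and ITGA5 were also found for GJA1, IL11 and IVL, which were not called. A link between a match and a rise was not tested. The 4 called higher are shown as 30 bases with the match in capitals, to compare the letters with the FOSL2 stretch above.
CXCL8: taggaagtgtgaTGACTCAggtttgccctg
MT2A: tggagccgcaagTGACTCAgcgcggggcgt
PLAUR: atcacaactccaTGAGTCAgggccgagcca
ITGA5: tcctccccgcgtTGAGTCAttcgcctctgg
They lie at chr4:73740420-73740449 (plus strand, match beginning 137 bases before the start), chr16:56608468-56608497 (plus, 104), chr19:43670338-43670367 (minus, 186) and chr12:54419255-54419284 (minus, 6). CXCL8, the neutrophil attractant IL-8, had a log2 signal of 12.48, 12.09, 12.28 and 12.18 on the OVCAR-8R arrays, against 7.86, 8.35, 7.49 and 7.68 on the OVCAR-8 arrays. PLAUR, the receptor of urokinase, had 10.42, 10.37, 10.43 and 10.33 on the OVCAR-8R arrays, against 8.06, 7.60, 8.10 and 8.03 on the OVCAR-8 arrays. Neither gene overlapped between the lines. ITGA5, the fibronectin receptor subunit, rose by 2.44 (standard error 0.07) and the metallothionein gene MT2A, whose signal related genes may share, by 3.26 (0.11).

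Immediate early genes outside AP-1, which are switched on by the same stimuli, were mixed. Of 24 tested, 7 were called higher, 2 lower and 15 not called, 37.5% against 16.7% of all genes, with a median of 0.46. CCN1, a matricellular protein gene that is also a YAP1 target, rose by 4.23 (standard error 0.09, adjusted p = 8.46e-10 from limma), the related CCN2 by 3.39 (0.15), the zinc finger factor gene KLF6 by 2.63 (0.08) and IER3, a survival gene, by 2.62 (0.06). The orphan nuclear receptor genes NR4A2 and NR4A3 fell by 1.49 (0.10) and 1.27 (0.09). The call of NR4A2 ended with the stricter filter, which leaves it out as too dim, and that of NR4A3 with treat. EGR1, which is controlled by SRF much like FOS, had 10.46, 10.17, 10.47 and 10.04 on the OVCAR-8R arrays, against 10.54, 10.13, 10.75 and 10.71 on the OVCAR-8 arrays. The lines overlapped, and the difference of -0.24 (0.15, adjusted p = 0.220) was not called. ZFP36 counts in this list and in that of the turnover factors.

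**Figure D4:**
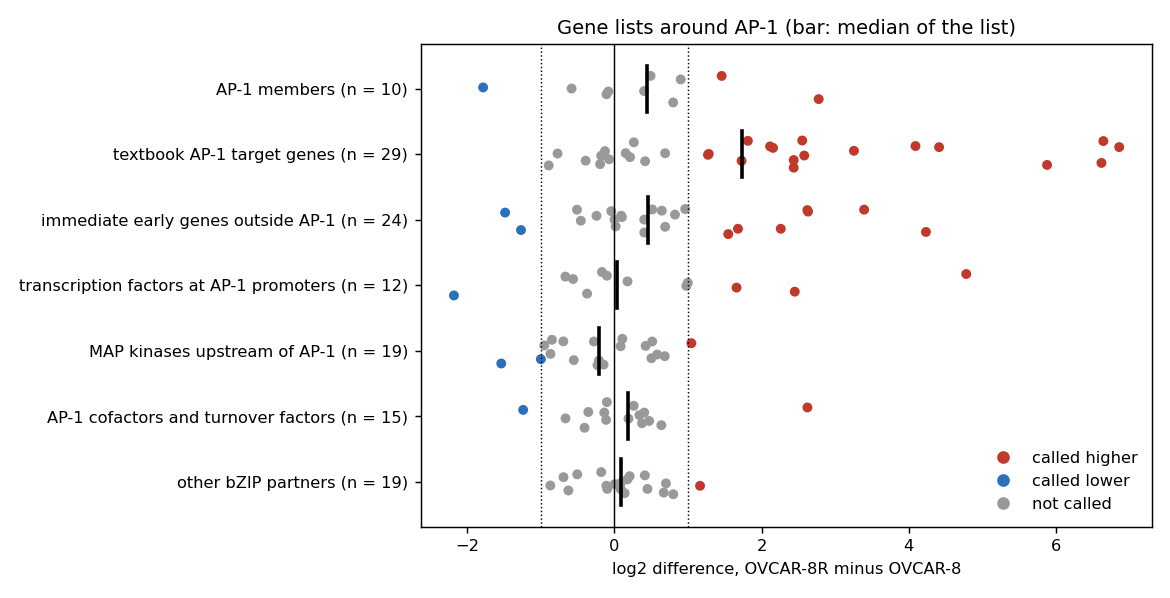
Log2 difference, OVCAR-8R minus OVCAR-8 (horizontal axis), of every tested gene in the AP-1 list and in 6 lists around it, coloured by call, with the median of each list as a black bar and 2-fold as dotted lines. The median of the targets is 1.73, that of the AP-1 members 0.45 and that of the MAP kinase genes -0.21.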

How the data were processed

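OVCAR-8R and OVCAR-8 spheroids were profiled with 8 Affymetrix Human Gene 1.0 ST arrays of their RNA. The authors ran RMA in Expression Console (Affymetrix, version 1.1), and the deposited table gives 1 linear intensity for each of 33297 probesets and 8 arrays. These were put on the log2 scale. RMA equalises the distributions of the arrays, so an overall difference in RNA output cannot be seen. The probe annotation names 1 gene for 19460 probesets, and members were matched by symbol. As the methods describe, a probeset was dropped if its mean fell in the lowest 25% in OVCAR-8R and in OVCAR-8, which kept 25628. Genes with several probesets were represented by the brightest.

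All probesets kept were fitted in limma (lmFit and eBayes, version 3.58.1, in R 4.3.3) with Benjamini-Hochberg adjustment, and a call needed 2-fold as well as an adjusted p under 0.05. The procedure was tested on simulated data. Some genes of the lists are not reported here. The methods name Student's t-test with q-values, which was an alternative. The members, lists and named genes (all members, and up to 4 called genes of each other list in each direction) were chosen with earlier results of these data known. The genes with TGANTCA in their window, the uncalled examples, DUSP1 and the TGACATCA search were chosen after values or sequences were seen. Windows are those of RefSeq for GRCh38.p14, searched with Python (version 3.11.15). The titles call the arrays biological replicates without saying where they were separated, so the p-values reflect only variation among these arrays, some of it possibly technical. The 4 arrays per line limit the precision.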

Additional observations from a re-analysis of the deposited data

Results flagged for a closer look

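On OVCAR-8 array 2, FOSL2 had a log2 signal of 7.63, below the other OVCAR-8 arrays, which lay between 7.86 and 7.89. Its distance from the nearest of them is 0.864 of the whole range. This was 1 of 20 groups of 4 arrays examined (10 members in both lines), and chance alone flags about 1 in 20. Without this array FOSL2 was still called higher.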

How the results depend on the processing

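At the 2-fold threshold, 2 members were called higher and 1 lower under each alternative, namely no filter, a stricter filter, the methods' t-test, an intensity trend, treat, median centring, cyclic loess, quantile scaling, array weights, probeset means, the replicate block and each array left out. At an adjusted p under 0.05 and any size of difference, 6 of 10 members were higher and 2 lower. Over all genes tested, 27.6% were higher, 30.0% lower and 57.6% either. The higher and lower counts were 7 and 4 of 19 other bZIP partners, 6 and 10 of 19 MAP kinases and 5 and 4 of 12 factors at AP-1 promoters. They were 7 and 4 of 15 cofactors and turnover factors, 20 and 3 of 29 targets and 14 and 4 of 24 immediate early genes. The sign of JUN turned with cyclic loess (0.000265), and that of BATF3 without OVCAR-8R arrays 2 and 4 (0.0142), an alternative chosen after seeing the data because these arrays deviate together. With treat, 0 other bZIP partners and 0 MAP kinases were higher, and 1 MAP kinase, 0 turnover factors and 1 immediate early gene were lower (NR4A3 lost). With the stricter filter, which drops dim genes such as FBXW7 and NR4A2, 0 turnover factors and 1 immediate early gene were lower. The target TNF lost its call with treat and with the stricter filter. Cyclic loess and quantile scaling each left 1 MAP kinase lower, since MAP2K4 lies at the threshold. With each array left out in turn, MAP kinases numbered 0 to 1 higher and 1 to 2 lower. Without OVCAR-8R arrays 2 and 4, 1 other bZIP partner (CREB5) and 3 MAP kinases (RPS6KA5 added) were lower. Without arrays 1 and 3, FOSB was no longer higher at any size (0.25, adjusted p = 0.0839 from limma) and 5 factors at AP-1 promoters were higher (MEF2D and STAT3 added). Where no reason is given, the cause was not tested. With treat, 832 genes were higher and 643 lower in all, against 1334 each. Arrays of the same number deviated together with r = 0.165, -0.323, -0.0515 and 0.443, and those of different numbers with r from -0.467 to 0.383. These values do not settle whether equal numbers mark a pairing or a shared batch. With the replicate block the counts of 2 higher and 1 lower members did not move (FOSL1 2.78, adjusted p = 7.26e-05 from limma). Where a mean lies in the lowest quartile (up to 5.11 in OVCAR-8R and 5.16 in OVCAR-8), the size of a difference is uncertain, as for IL1B and LUM.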

Other observations

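Of 24 immediate early genes outside AP-1, 21 had OVCAR-8R arrays 1 and 3 above arrays 2 and 4, against 6 of the 10 members and 33.8% of all genes tested, and 2 had them below. On the OVCAR-8 arrays, 6 of the 24 had arrays 1 and 3 above arrays 2 and 4 and 1 had them below. DUSP1, a phosphatase of the MAP kinases, was among the 21, with 11.93, 11.76, 11.90 and 11.78 on the OVCAR-8R arrays, against 9.59, 9.50, 9.68 and 9.56 on the OVCAR-8 arrays. The order was noticed in these data and was not tested.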
